A study of Mus musculus with 6 samples.

Results

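Rods are the photoreceptors of dim light and the most numerous neurons of the mouse retina. In CD31-enriched suspensions of retinas in oxygen-induced retinopathy (OIR), 1508 of 8944 cells carried the label Rods in the annotation deposited by the authors, and these are the cells described here. Pups were exposed to 75% O2 from postnatal day 7 (P7) to P12, returned to room air, and their retinas were collected at P14, with 3 to 5 retinas pooled per replicate. There were 3 replicates of eNOS+/+ mice (C57BL/6J) and 3 of eNOS-/- mice, which are homozygous for a knockout allele of Nos3, the gene of endothelial nitric oxide synthase, backcrossed for 15 generations. In both genotypes pups were kept with CD1 foster mothers, and the cells were enriched on magnetic columns for CD31, an endothelial antigen, so rods were cells that passed the enrichment and their share is not that of the intact retina. Single-cell libraries were made by Drop-seq, in which each captured mRNA molecule is counted once through its unique molecular identifier (UMI).

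In a rod, light is absorbed in the stacked disc membranes of the outer segment. This switches on transducin (Gnat1, Gnb1, Gngt1), transducin relieves the inhibitory subunit (Pde6g) from the phosphodiesterase (Pde6a, Pde6b), and the fall in cyclic GMP closes the channel formed by Cnga1 and Cngb1. Arrestin (Sag) ends the response, and phosducin (Pdc) binds free transducin subunits. The transcription factor Nrl, with its target Nr2e3, directs a photoreceptor precursor to the rod fate, and Crx acts in rods and cones.

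The label was drawn by the authors from the cells' own genes, so its markers describe the cells and are no independent support for it. At least 1 UMI of Sag, Gnat1 or Nrl was found in 95.1% of rods, and 74 rods had none of the 3. After each cell with enough depth was thinned to 200 UMIs, which left out 169 rods, 78.8% of rods had a UMI of Sag (95% Wilson interval 76.5 to 80.9), 42.8% of Gnat1 and 27.8% of Nrl. The same shares in all endothelial cells (ECs) were 2.09%, 0.676% and 0.357%, and in the cells labelled Neurons 2.80%, 0.778% and 1.24%. The unthinned shares in rods were 89.9%, 58.2% and 41.9%, at a median of 361 UMIs per rod against 682 per EC and 579 per neuron. Intervals of this kind cover counting error only.

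Rods were unevenly spread over the replicates. The eNOS+/+ replicates 1, 2 and 3 held 389, 7 and 56 rods, and the eNOS-/- replicates 279, 751 and 26. Their summed rod UMIs were 202698, 2031 and 20998 against 129022, 294454 and 7184. In eNOS+/+ replicate 2 a single UMI therefore equals 492 counts per 1000000 UMIs (CPM), and mean levels are given over the 5 replicates with at least 20 rods. All 613 cells of eNOS+/+ replicate 2 carry the library name of eNOS+/+ replicate 1 in another column of the annotation. No rod barcode of 1 replicate was found in another replicate of its genotype, and 1 was found in a replicate of the other genotype. Cells of a single library carry different barcodes too, so this cannot tell whether eNOS+/+ replicates 1 and 2 were separate libraries. Of the rods, 199 belonged to families of barcodes that differ only in base 12, the last, and counting each family once leaves 1383 rods. A single cell labelled as a rod, in eNOS-/- replicate 2, had 6964 UMIs, with 52 UMIs of 11 endothelial genes and 5 of 21 rod genes.

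The share of rods did not separate the genotypes. It was 38.2% (95% Wilson interval 35.2 to 41.2), 1.14% (0.554 to 2.34) and 4.00% (3.10 to 5.16) of cells in eNOS+/+ replicates 1 to 3, and 15.6%, 20.2% and 6.27% in the eNOS-/- replicates. The eNOS+/+ group held both the highest and the lowest value. The means were 14.4% ± 20.6 (SD, n = 3) and 14.0% ± 7.12 (SD, n = 3), with p = 1 in a two-sided exact permutation test, in which 3 against 3 replicates cannot go below 0.1. Median UMIs per rod were 422, 277 and 280 against 425, 326 and 250 (exact permutation p = 0.9). The median mitochondrial share of a rod's UMIs was 1.71%, 6.50% and 4.14% against 4.29%, 6.25% and 1.56% (exact permutation p = 0.8). The adjusted p was 1 for each of the 5 exact tests made on single values.

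**Figure D1:**
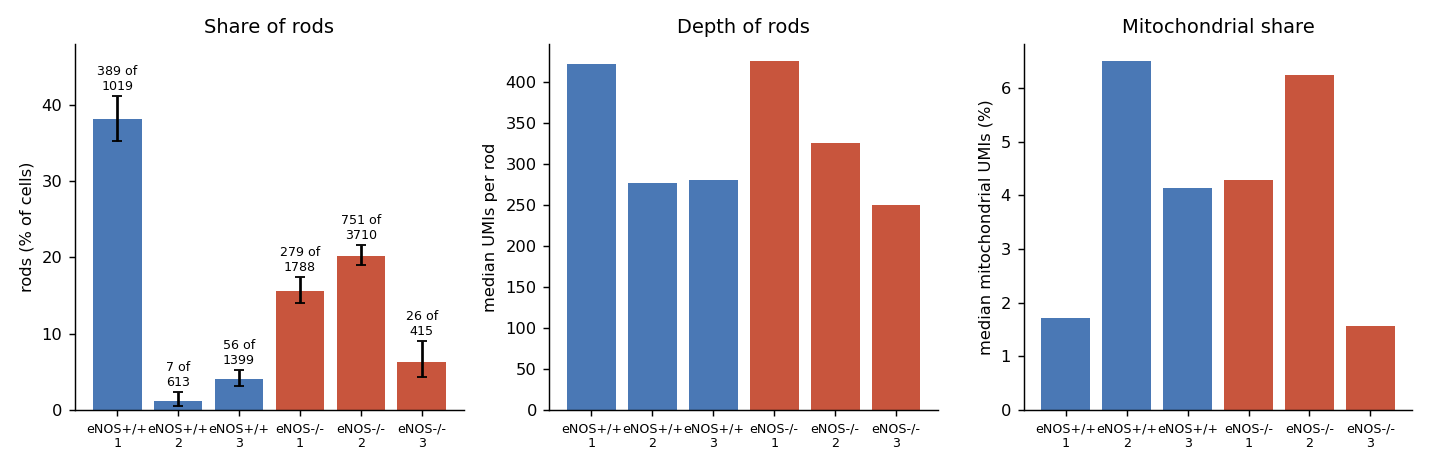
Share of cells labelled as rods (percent, with 95% Wilson intervals and the number of rods and cells), median UMIs per rod and median mitochondrial UMIs per rod (percent) in each replicate, eNOS+/+ in blue and eNOS-/- in red. The share runs from 1.14% to 38.2% within eNOS+/+, which spans the 3 eNOS-/- values, and the other panels overlap between genotypes too.

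The genes of phototransduction took 8.23% of all rod UMIs. All 21 listed genes had UMIs in rods, and 20 were above 100 CPM in the pooled rods. Levels given for other cell types are pooled over replicates. Sag had 10982 and 5715 CPM in eNOS+/+ replicates 1 and 3 and 11750, 10338 and 9326 CPM in eNOS-/- replicates 1, 2 and 3, with 3939 CPM in the 7 rods of eNOS+/+ replicate 2. Its mean over the 5 larger replicates was 9622 ± 2358 CPM (SD, n = 5), and in pooled ECs it was 63.5 CPM. Gnat1 had 3429 and 1476 CPM against 4201, 3063 and 4733 CPM, and no UMI in eNOS+/+ replicate 2, where 0 UMIs allow up to 1477 CPM. Nrl had 3231 and 1000.1 CPM against 1883, 1372 and 1253 CPM. For Sag and Gnat1, eNOS+/+ replicate 3 was the lowest of the 5, and for Nrl eNOS+/+ replicates 1 and 3 lay above and below all eNOS-/- replicates.

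Of the other phototransduction genes, the transducin subunit Gngt1 reached 14960 ± 2893 CPM and Pdc 7841 ± 2908 CPM (SD, n = 5). Guca1a, which encodes a guanylate cyclase activator, was the listed member below 100 CPM in rods, at 25.9 CPM in pooled rods against 647 CPM in pooled cones. Grk1, a photoreceptor kinase, was at 417 CPM in pooled rods and 370 CPM in pooled cones. Compared with neurons and ECs, all 21 genes were higher in pooled rods, and 18 of 21 were higher in rods than in cones. These contrasts between labels carry no test.

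**Figure D2:**
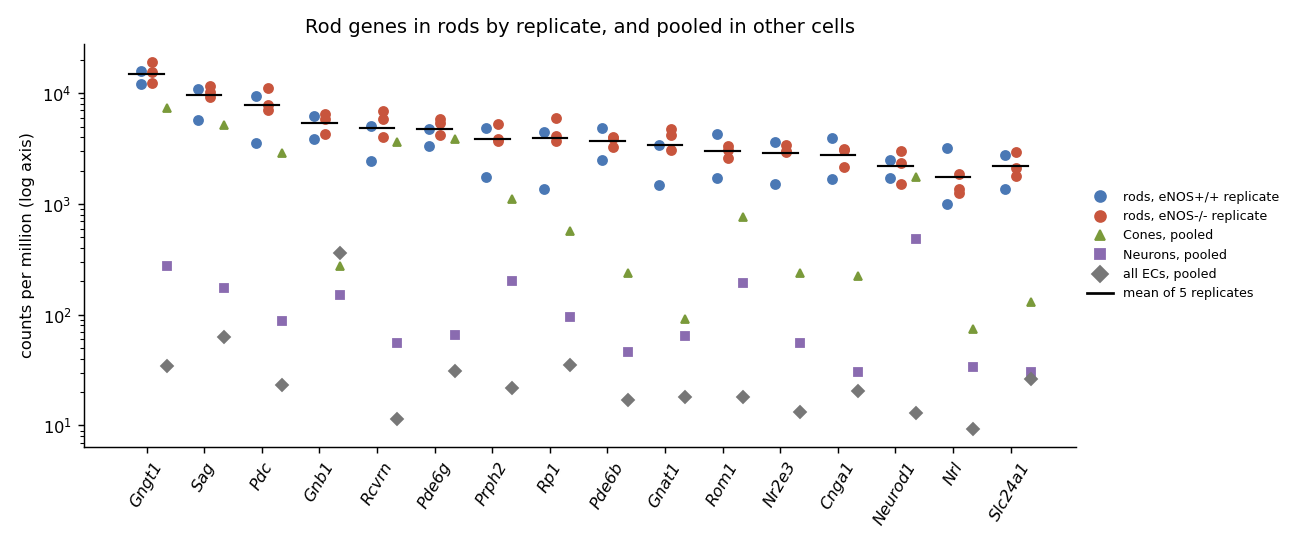
Levels of 16 rod genes (CPM, log axis) in rods of the 5 replicates with at least 20 rods (blue eNOS+/+, red eNOS-/-, black line the mean), beside their pooled levels in Cones, Neurons and all ECs. Replicates of both genotypes lie among each other, and most genes are far lower in Neurons and ECs, with Gnb1 at 363 CPM in ECs.

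Outer segment and visual cycle genes made up 2.89% of rod UMIs, and all 21 were higher in pooled rods than in ECs. The leading members were Rp1, a microtubule protein of the outer segment axoneme, at 3920 ± 1664 CPM, the disc rim protein Prph2 at 3904 ± 1364 CPM, Tulp1 at 3639 ± 607 CPM and Rpgrip1, of the connecting cilium, at 3286 ± 635 CPM (SD, n = 5 for each). Tulp1 was higher in cones (5472 CPM) than in rods. Among the transcription factors Nr2e3 was at 2899 ± 827 CPM, Neurod1 at 2221 ± 609 CPM, Nrl at 1748 ± 890 CPM and Casz1 at 818 ± 354 CPM (SD, n = 5). Neurod1 was also found in cones (1756 CPM) and neurons (486 CPM), while Nrl was at 74.0 and 33.8 CPM there. Photoreceptor synapse genes were shared between neural types, with summed levels of 7910 CPM in rods, 9354 CPM in cones and 7340 CPM in neurons. Cplx4, a complexin of ribbon synapses, led this list in rods at 1208 ± 369 CPM (SD, n = 5) and was at 49.8 CPM in neurons. Snap25 and Syt1, of the machinery of vesicle release in neurons at large, were at 1040.2 ± 401 and 770.1 ± 134 CPM in rods (SD, n = 5) and at 1995 and 1478 CPM in neurons.

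Genes of at least 100 CPM in rods were ranked by the ratio to the highest mean in any other annotated type. A mean elsewhere below the level that 3 counts are worth in that type was raised to that level. The 10 leading genes included Gnat1, Pde6b, Slc24a1, Gnb1, Nrl, Cnga1, Pde6a, Nr2e3 and Rp1. The ranking compares each gene with itself in other cells. Pde6b was 14.7 times its level in cones, which rest on the 1 replicate with at least 20 cones. Gnb1 was 13.6 times its level in Tip ECs. For Gnat1, Slc24a1, Nrl and Pde6a, the highest mean elsewhere was under the 158 CPM that 3 counts are worth in the immune cells, so no ratio is given. Slc24a1, the sodium, calcium and potassium exchanger of the outer segment, was at 2192 ± 650.4 CPM, Pde6b at 3723 ± 883 CPM and Cnga1 at 2792 ± 892 CPM in rods (SD, n = 5). Of 2074 genes at or above 100 CPM in rods, 7 had a ratio above 10 on this scale. Among them, Gnat1, Slc24a1 and Nrl were set against the raised level. Genes of lower level could not reach that ratio, such as Cngb1, with 1078 CPM in rods and 43.6 CPM as the highest mean elsewhere.

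The regulators Crx and Nrl are known to act through short DNA motifs near photoreceptor genes. In RefSeq promoters of GRCm38.p6, 43 of 54 listed rod genes had an entry (53 promoters). In the 250 bases before the start, TAATCC (or GGATTA, its reverse complement), the core bound by Crx, occurred in 32.1% of these promoters against 6.25% of all 32851. TGCTGA (or TCAGCA), which starts the site of Nrl, occurred in 24.5% against 16.1%. In promoters of the listed cone genes, TAATCC was found in 2 of 12 and TGCTGA in 1 of 12. In those of the endothelial genes they were found in 0 of 8 and 2 of 8. These sets are too small to set rod promoters apart from cone promoters. Neither word can overlap the other. These counts describe letters, since a match is not a site in use. The promoters of Sag, which holds both words, Cnga1, which holds TAATCC, and Nrl, which holds neither, are shown because they carry the marker, the channel and the regulator of the rods. They are chr1:87803430-87803679 (plus strand), chr5:72642753-72643002 (minus) and chr14:55524253-55524502 (minus), written in the direction of the gene with the matched words in capitals.
Sag: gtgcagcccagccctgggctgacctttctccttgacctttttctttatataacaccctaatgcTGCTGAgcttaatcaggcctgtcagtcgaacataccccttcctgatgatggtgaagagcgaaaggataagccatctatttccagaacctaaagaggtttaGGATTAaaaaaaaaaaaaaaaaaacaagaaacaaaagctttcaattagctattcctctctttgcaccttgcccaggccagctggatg
Cnga1: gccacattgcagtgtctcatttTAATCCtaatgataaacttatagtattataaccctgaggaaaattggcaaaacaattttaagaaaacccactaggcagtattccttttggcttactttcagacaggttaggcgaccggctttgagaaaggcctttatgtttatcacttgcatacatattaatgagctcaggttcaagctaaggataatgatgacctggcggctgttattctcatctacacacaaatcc
Nrl: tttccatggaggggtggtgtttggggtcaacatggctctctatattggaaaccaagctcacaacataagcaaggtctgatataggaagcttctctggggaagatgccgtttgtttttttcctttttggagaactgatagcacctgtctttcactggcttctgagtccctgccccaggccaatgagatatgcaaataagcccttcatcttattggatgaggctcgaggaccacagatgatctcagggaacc

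Rods and cones use paralogous proteins for the same steps, and their shares in each label are given as a description, with no test, since the pairs were chosen after their values were seen and the labels rest on such genes. In rods the rod member took 97.0% to 99.8% of the UMIs of each of 8 pairs. For the transducin alpha subunits it took 2204 of 2226 UMIs in rods (99.0%, Wilson interval 98.5 to 99.4) and 2.66% (1.14 to 6.07) in cones. For the phosphodiesterase inhibitory subunits, Pde6g took 98.8% in rods and 22.1% (19.6 to 24.9) in the 50 cones. Cones still carried much of the rod member of some pairs, with Sag at 54.7% (50.4 to 59.0) of the arrestin UMIs beside Arr3 and Gngt1 at 50.8% (47.3 to 54.3) beside Gngt2. The other cone genes were nearly absent from rods. Opn1sw, the short-wave opsin, had UMIs in 0.729% of rods and 68% of cones, and the cone list summed to 616 CPM in rods against 43850 CPM in cones. Of the 50 cones, 33 came from eNOS-/- replicate 2.

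**Figure D3:**
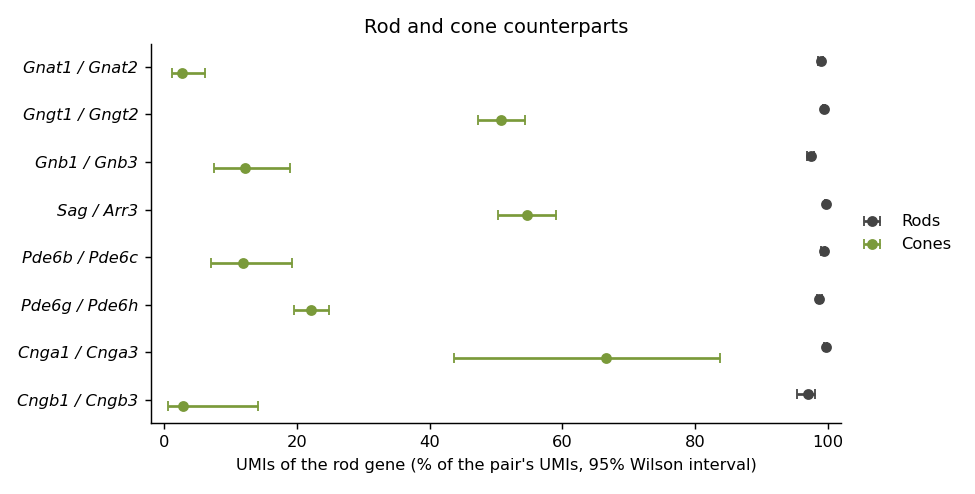
Share of the UMIs of each rod and cone gene pair that belong to the rod gene (percent, points with 95% Wilson intervals) in rods and in cones, pooled over replicates. Rods sit at 97.0% or above for all 8 pairs, while cones range from 2.66% (Gnat1) to 66.7% (Cnga1, 18 UMIs of the pair).

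Rods fell into clusters 0, 4 and 12 of the authors' clustering, with 674, 534 and 300 cells. Cluster 4 had the highest level of the phototransduction list (120464 CPM, against 71744 in cluster 0 and 35496 in cluster 12). Gngt1 was at 24498, 10667 and 3002 CPM, and Pde6g at 8692, 3076 and 954 CPM in clusters 4, 0 and 12. Ndufa4, a subunit of the respiratory chain, followed with 2671, 1088 and 341 CPM, and ribosomal protein genes with 48678, 27340 and 19575 CPM in sum. Malat1, a nuclear RNA, ran the other way, with 6201, 21858 and 43627 CPM. Neurod1 was highest in cluster 0 (3197 CPM, against 1818 and 1506). The differences between clusters 0 and 4 had the same direction in all 5 larger replicates for Gnat1, Gngt1, Pde6g, Rcvrn, Ndufa4 and Neurod1. Sag was higher in cluster 4 in 4 of 5, and Egr1 was lower there in 4 of 5, since eNOS-/- replicate 3 had 1 Egr1 UMI in all its rods and shows no direction. That replicate had 9 rods in cluster 4. Clusters were built on these genes, so the values are a description, and the genes in this paragraph outside the lists were chosen after their values were seen. The median mitochondrial share was 3.75%, 5.05% and 6.30% in clusters 0, 4 and 12. Cluster 12 held 28.4% of the rods of eNOS-/- replicate 2 and 0% to 14.3% of those of the other replicates.

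**Figure D4:**
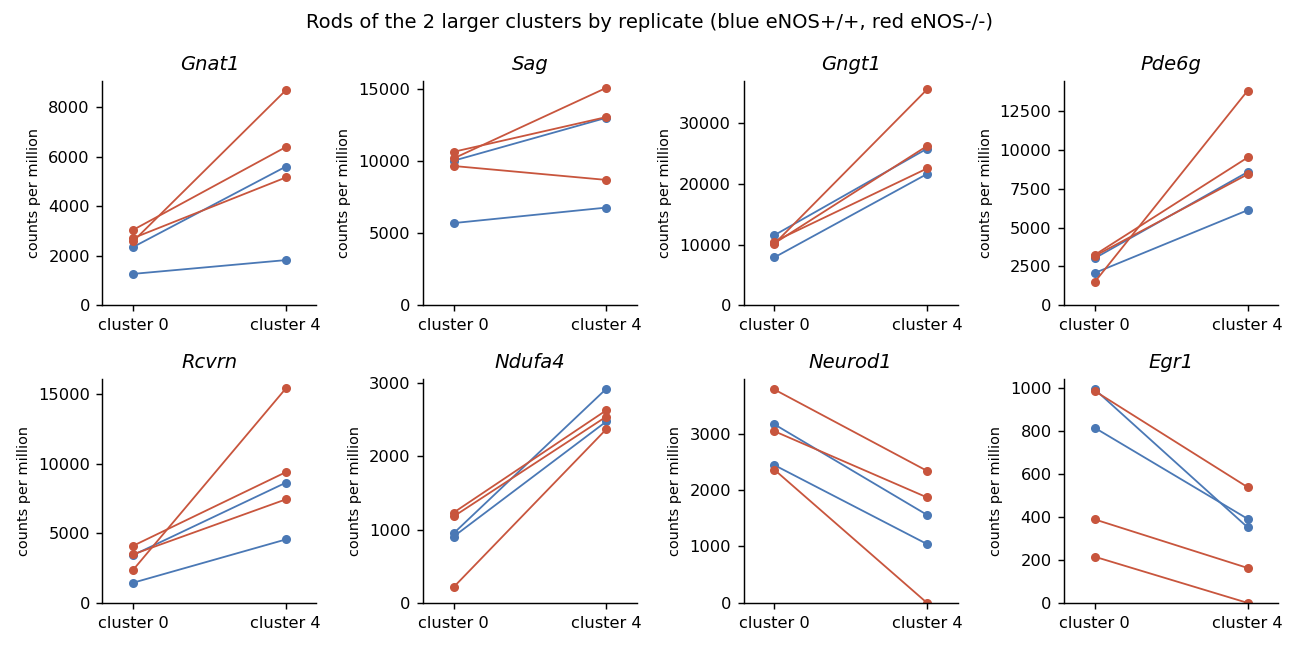
Levels of 8 genes (CPM) in rods of clusters 0 and 4, with 1 line per replicate (blue eNOS+/+, red eNOS-/-, 5 replicates with at least 20 rods). Gnat1, Gngt1, Pde6g, Rcvrn and Ndufa4 are higher in cluster 4 in all 5 replicates and Neurod1 lower, Sag goes down in 1, and the lowest Egr1 line rests on 1 UMI.

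Between genotypes, 1 of 1522 genes tested in rods passed an adjusted p of 0.05 (0.0657% called), by edgeR's quasi-likelihood test on UMIs summed per replicate with Benjamini-Hochberg adjustment. At an unadjusted p under 0.05 there were 27 (1.77%), of which 12 were higher (0.788%) and 15 lower (0.986%) in eNOS-/-. The called gene was Atp5o, a subunit of mitochondrial ATP synthase. It had 0, 0 and 4 UMIs in eNOS+/+ replicates 1 to 3 and 43, 78 and 9 UMIs in the eNOS-/- replicates, which gave 4.03 ± 0.91 as the log2 fold change and its standard error (adjusted p = 0.0230 by edgeR). The table holds a second row for this symbol, named Atp5o.1. Over all cells of eNOS+/+ replicate 1, the first row had 0 UMIs and the second 275, while in the other 5 replicates the first row had 255 to 1057 UMIs and the second 0. GENCODE M21 lists 2 overlapping protein-coding genes of this name on chromosome 16 of GRCm38, at 91684398 to 91926982 and 91925214 to 91931687 on the minus strand. With both rows summed, rods had 173, 0 and 191 CPM against 333, 265 and 1253 CPM, the fold change was 1.23 on the log2 scale (adjusted p = 0.998 by edgeR) and 0 genes were called in rods, with 27 at an unadjusted p under 0.05. DESeq2 called 0, with 18. Without eNOS+/+ replicate 1, the 3 genes called were Igfbp7, mt-Atp6 and mt-Co2, all lower in eNOS-/- (0.711% of 422 tested). Without eNOS+/+ replicate 3 they were Atp5o, Ptprb, Rgs5 and Vim, higher, and Scand1, lower (0.177% of 2830 tested). Leaving out eNOS-/- replicate 1, 2 or 3 in turn gave 0 calls among 431, 438 and 2964 genes tested. Atp5o did not pass the filter, and so was not tested, without eNOS+/+ replicate 1 or without eNOS-/- replicate 1 or 2. Without eNOS-/- replicate 3 its adjusted p was 0.0583 by edgeR.

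**Figure D5:**
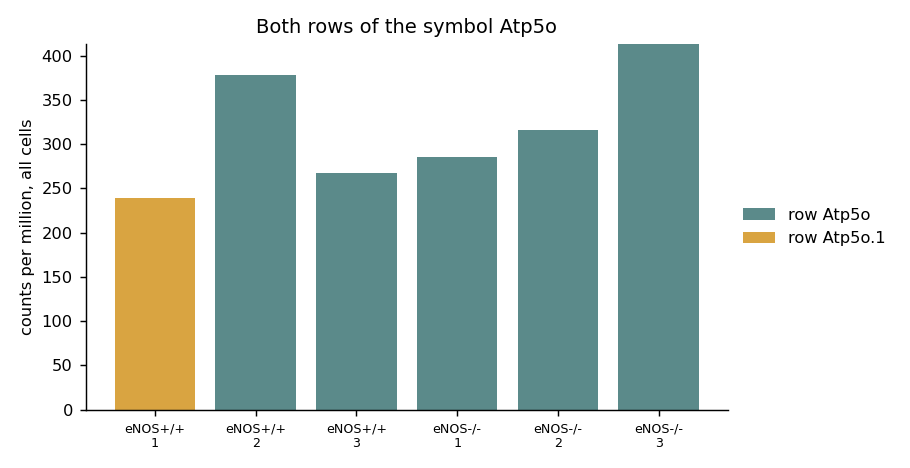
UMIs of the row Atp5o and the row Atp5o.1 in each replicate, in CPM over all cells. In eNOS+/+ replicate 1 all UMIs are in the second row (239 CPM), and in the other 5 replicates all are in the first (268 to 413 CPM).

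Of genes lower in eNOS-/- rods, the 3 of smallest p did not pass. Scand1 had 192, 0 and 143 CPM against 0, 17.0 and 278 CPM (log2 fold change -3.05, adjusted p = 0.315 by edgeR). Igfbp7, an abundant endothelial secreted protein, had 109, 1969 and 2000 CPM against 132, 329 and 0 CPM (log2 fold change -2.01, adjusted p = 0.556 by edgeR), and without eNOS+/+ replicate 3 the fold change was 0.74. Beside it, the 11 endothelial genes summed to 710, 1969 and 4286 CPM in these rods against 1302, 1729 and 835 CPM, and the part of endothelial RNA in the Igfbp7 values was not tested. Rnf10 had 276, 492 and 333 CPM against 62.0, 74.7 and 278 CPM (log2 fold change -1.81, adjusted p = 0.556 by edgeR). The groups overlapped for Scand1 and Igfbp7, and for Rnf10 the highest eNOS-/- value was above the lowest eNOS+/+ value.

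No gene of the rod lists passed the test, where 0.0657% of all genes did, so a count of 0 says nothing particular about them. Of the 20 phototransduction genes tested, 0 had an unadjusted p under 0.05. Their median log2 fold change was 0.47, against 0.06 over all genes tested, with 19 of 20 above 0, beside 845 of all 1522. Without eNOS+/+ replicate 2, the replicate with 7 rods, the median was 0.16 (against -0.02) with 12 of 20 above 0, beside 1510 of all 3121. In that fit 1 of 3121 genes, Atp5o again, was called (0.032%). Without eNOS+/+ replicate 1, which held 389 rods, 16 of these genes were tested, with a median of 0.96 (against 0.16). All 16 were above 0, beside 245 of all 422. Of the 16, 7 were higher at an unadjusted p under 0.05, beside 49 of all 422 genes (11.6%), and 0 were called. In that fit the eNOS+/+ group was 7 and 56 rods, and the filter could admit a gene on its eNOS-/- levels alone. Such a gene is prone to come out above 0, so these counts are a description and no support for a difference. The log2 fold change, with its standard error, was 0.67 ± 0.68 for Sag, 0.99 ± 0.63 for Gnat1 and -0.30 ± 0.60 for Nrl, each with an adjusted p of 0.998 by edgeR. Without eNOS+/+ replicate 1 they were 1.22 for Sag (adjusted p = 0.209 by edgeR), 1.79 for Gnat1 (adjusted p = 0.113) and 0.57 for Nrl (adjusted p = 0.686), and without eNOS+/+ replicate 2 they were 0.23, 0.51 and -0.58 (adjusted p = 1.00 each). Of the outer segment list 18 genes, of the transcription factors 9 and of the synapse list 14 were tested, with 0 calls and medians of 0.33, 0.25 and 0.01. In counts simulated from the rod sums, 200 of 1522 genes were given a log2 change of 2. Of these, 162 passed the filter and 127 were recovered, so changes of that size may be missed too. With eNOS+/+ replicate 2 left out, 200 genes were drawn from 3121, of which 165 passed and 56 were recovered. The genes drawn differ between the 2 simulations, so their counts do not measure the effect of that replicate. Fewer UMIs of a gene can mean fewer molecules per rod or other rods captured, which these sums cannot tell apart.

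Rods take up glucose and make lactate at a high rate, and the retina of OIR at P14 is hypoxic in its avascular centre. Glycolysis enzymes summed to 7387 CPM in rods, 13061 CPM in neurons and 3794 CPM in ECs. Gapdh was at 1316 ± 319 CPM, Ldha at 1233 ± 377 CPM and Pkm at 1114 ± 226 CPM in rods (SD, n = 5). Of the hypoxia targets, Vegfa was at 35.04 CPM in pooled rods, 235 CPM in neurons and 5.59 CPM in ECs. Slc2a1, the glucose transporter, was at 199.6 CPM in pooled rods, 129.8 CPM in neurons and 998 CPM in ECs. Ndrg1 was at 452 CPM in pooled rods, 194 CPM in neurons and 12.2 CPM in ECs. The list of photoreceptor injury and stress genes was low in rods (256 CPM in sum, against 1549 CPM in neurons), and none of its members had enough UMIs to be tested. Of the heat shock genes, Hsp90aa1 was at 3550 ± 1614 CPM (SD, n = 5) in rods and 366 CPM in ECs, and Hsp90ab1 at 1144 ± 759 CPM (SD, n = 5) in rods and 4002 CPM in ECs. Among the immediate early genes Egr1 led, at 509 ± 285 CPM (SD, n = 5). Between genotypes 0 of 14 glycolysis enzymes, 0 of 7 hypoxia targets and 0 of 4 immediate early genes tested were called, as 0.0657% of all genes were.

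The mitochondrial rRNA mt-Rnr2 had the most UMIs of any gene in pooled rods. It was at 7854, 39389 and 14620 CPM in eNOS+/+ and 29429, 48853 and 9187 CPM in eNOS-/- rods (log2 fold change 1.19, adjusted p = 0.998 by edgeR). Within each of the 6 libraries it was higher in rods than in ECs, by 1.30 to 4.48 times. In neurons it was at 7997, 20085 and 8250 CPM in eNOS+/+ and 15550.5, 22776 and 3515 CPM in eNOS-/-, above rods in eNOS+/+ replicate 1. Pooled cones had 19300 CPM. The 13 mitochondrial protein-coding genes summed to 10903, 27080 and 27098 CPM against 13602, 8718 and 10440 CPM. Of the 14 mitochondrial genes tested 0 were called, as 0.0657% of all genes were. Their median log2 fold change was -0.48, against 0.06 over all genes tested. Without eNOS+/+ replicate 1, whose sum was the lowest of its group, the median was -0.87 (against 0.16). In that fit 2 of the 14 were called, mt-Atp6 and mt-Co2, beside 3 of all 422 genes (0.711%). Without eNOS+/+ replicate 3 the median was 0.09 (against 0.07) with 0 called, beside 5 of all 2830 genes (0.177%). Within libraries the sums of the 13 protein-coding genes were higher in rods than in ECs in 4 of 6. In neurons they were 22649, 44226 and 33397 CPM in eNOS+/+ and 23695, 19248 and 20251 CPM in eNOS-/-, above the rods of each library. The neurons of eNOS+/+ replicate 2 and eNOS-/- replicate 3 were only 11 and 10 cells.

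Nos3 itself, the targeted gene, was nearly absent from rods, with 1, 0 and 1 UMIs in eNOS+/+ and 2, 3 and 0 in eNOS-/- rods. In ECs it was at 19.4, 36.6 and 23.6 CPM in eNOS+/+ and 21.2, 16.1 and 32.8 CPM in eNOS-/-, and the genotypes overlapped. Drop-seq reads come from the 3′ ends of transcripts, so these counts do not check the genotype labels unless the knockout allele lacks that end, which was not tested. The soluble guanylate cyclase subunits Gucy1a1 and Gucy1b1, which bind nitric oxide, were at 9.7 ± 17.7 and 1.4 ± 3.0 CPM in rods (SD, n = 5) and at 252 and 210 CPM in neurons. AI506816, a non-coding transcript of chromosome 5 (23698296 to 23712667 of GRCm38), had 0 of 225727 UMIs in eNOS+/+ rods, which allows up to 13.3 CPM, and 3, 9 and 0 UMIs in eNOS-/- rods. In ECs it was at 123, 140 and 78.8 CPM in eNOS+/+ and 12.5, 21.0 and 8.19 CPM in eNOS-/-, without overlap between genotypes. Nos3 lies on the same chromosome, at 24364810 to 24384474, and the part of sequence linked to the knockout allele in this difference was not tested. Whether genotype differences differed between rods and ECs was tested in 1 model with the library as a block. Of 7625 genes, 0 passed (0% called) and 167 had an unadjusted p under 0.05 (2.19%), and DESeq2 called 0, with 78. AI506816 had the smallest p (2.18e-05, adjusted p = 0.166 by edgeR), and it was called with RLE scaling, with the replicate number as the block and without eNOS+/+ replicate 3. In simulated data with a log2 change of 2 confined to rods, this test called 0 of 200 changed genes, so its lack of calls says nothing about such changes.

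UMIs of rod genes were found in the ECs of each library, and their source was not tested. Sag in ECs was at 49.7, 27.4 and 36.1 CPM in eNOS+/+ and 27.2, 139 and 16.4 CPM in eNOS-/- replicates, beside rod shares of 38.2%, 1.14%, 4.00%, 15.6%, 20.2% and 6.27% of cells. The replicates with the largest shares, eNOS+/+ replicate 1 and eNOS-/- replicate 2, had the highest Sag values in ECs, in reverse order. Among the rest, eNOS+/+ replicate 2, with 7 rods, was close to eNOS-/- replicate 1, with 279. The phototransduction list summed to 902, 702 and 751 CPM in ECs of eNOS+/+ and 761, 1281 and 661 CPM in those of eNOS-/- (exact permutation p = 0.8, n = 3 against 3). Much of this was Gnb1 (327 to 401 CPM) and Pde6a (115 to 174 CPM), which varied little between libraries. Without them the list in ECs was at 0.137% to 1.25% of its level in the rods of the same library. In the other direction, mean levels of the endothelial list in rods were 2322 ± 1814 CPM for eNOS+/+ and 1289 ± 447 CPM for eNOS-/- (SD, n = 3, exact permutation p = 0.5). Of all rods 35.5% had a UMI of the 11 genes, and 62 had 3 or more. Without Pecam1, the list was at 3.02% to 37.2% of its level in ECs of the same library, highest in eNOS+/+ replicate 3. Pecam1 encodes CD31, the antigen of the enrichment, and was at 682 ± 230 CPM in rods (SD, n = 5), 642 CPM in neurons and 1358 CPM in ECs, whereas Cldn5 was at 161 ± 234, 56.9 and 1448 CPM.

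Genes of other retinal types were low in rods. The bipolar list summed to 405 CPM in rods against 15789 CPM in neurons, led by Trpm1, the channel of ON bipolar cells, at 87.0 ± 146 CPM (SD, n = 5) in rods and 346 CPM in those of eNOS-/- replicate 2. Amacrine, horizontal and ganglion cell genes summed to 133 CPM, with 5 of 15 at 0 in rods. Müller glia and astrocyte genes summed to 230 CPM, with Glul at 91.7 ± 106 CPM (SD, n = 5) against 6497 CPM in neuroglia. Microglia and leukocyte genes summed to 38.1 CPM, red blood cell genes to 209 CPM, pigment epithelium genes to 160 CPM and lens crystallins to 12.2 CPM. The mural gene Rgs5 was at 4.93, 492 and 191 CPM in eNOS+/+ and 7.75, 292 and 278 CPM in eNOS-/- rods, with a log2 fold change of 2.35 that did not pass (adjusted p = 0.998 by edgeR), and was at 20076 CPM in mural cells. Xist, which is expressed from the inactive X of females, was at 0 UMIs in rods of eNOS+/+ replicate 3 and 4 UMIs in those of eNOS-/- replicate 2, and at 335, 1477, 349 and 278 CPM in the other 4.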

How the data were processed

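Single-cell RNA was measured by Drop-seq in 6 pooled samples. Per the paper's methods and the submitters' processing notes, the authors aligned reads to GRCm38, kept cells with more than 100 genes and less than 10% mitochondrial counts, and annotated cell types with Seurat version 3. The deposited table holds UMI counts without normalization, and the percent of mitochondrial UMIs, cell type, cluster and replicate of each cell come from the deposited annotation, of which 9 columns were not used. All cells (100%) are called singlets there, and no doublet caller was run here.

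UMIs of rods were summed per replicate (2031 to 294454), which sets the precision of each level. CPM are counts per 1000000 UMIs of such a sum. Genotypes were compared with edgeR 4.0.16 (filterByExpr, TMM, quasi-likelihood test, Benjamini-Hochberg at 0.05) in R 4.3.3, and with DESeq2 1.42.0 as an alternative. A standard error is the fold change divided by the root of F. For single values a two-sided exact permutation test was used (scipy 1.17.1). Nothing shows that replicates came from separate litters, so p-values measure the spread between these pools. The chi-square per gene between rod sums of same-genotype replicates was 2.61 to 12.6, above sampling noise, so no replicate was a copy.

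The fits were tested on simulated data. Members, gene lists and tests were chosen with earlier results of these data known. Genes were named by a rule: the 3 markers, Nos3, AI506816, called genes or the 3 of smallest p per direction, up to 4 members of each list with the highest level, and the 10 genes most selective for rods. A gene that this rule names is not reported here. Others named were chosen after their values were seen. Alternatives were other tools, scaling and filters, leaving out each replicate, a block for the replicate number, other choices of rods, and, added after the data were seen, rows of a repeated symbol summed, 1 rod per barcode family, rods of 2 clusters, and the rod of most UMIs left out. Promoter sequences are from RefSeq (GRCm38.p6), and gene coordinates from GENCODE M21.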

Additional observations from a re-analysis of the deposited data

How the results depend on the processing

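The single call between genotypes in rods was unstable. It became 0 calls with DESeq2, with the replicate number as a block, in 1 fit over 12 sums, with rows of a repeated symbol summed and with 1 rod per barcode family, and ranged from 0 to 5 with a replicate left out. Without a filter the 1 call was the row Atp5o.1. With a replicate left out the interaction gave 0 to 1 calls, and it gave 2 with RLE scaling and 1 with the replicate number as a block in place of the library. Deviations of replicates 1, 2 and 3 correlated between genotypes by 0.13, -0.03 and -0.01 for the same number, and by -0.057 to 0.071 for different numbers. The value of replicate 1 was the highest. Those of replicates 2 and 3 include sums of 7 and 26 rods, so these values cannot tell whether the numbers pair the samples. The share of rods, -0.40 percentage points (eNOS-/- minus eNOS+/+), was 7.62 among cells other than ECs and 1.22 with 1 cell per barcode family, and -7.05 to 11.5 with a replicate left out. UMIs per rod differed by 7.33, by -18.4 in means, and by -38.3 to 55.2 with a replicate left out. The mitochondrial share moved from -1.29 to 1.15 percentage points, the rod genes in ECs from -73.9 to 236 CPM and the endothelial genes in rods from -1839 to -51.3 CPM with a replicate left out. The log2 fold change of Rpgrip1 was -0.070 in rods without endothelial UMIs and -0.034 in clusters 0 and 4. With a replicate left out it ranged from -0.17 to 0.46, that of Nrl from -0.60 to 0.57, Gngt1 from -8.6e-05 to 0.87, Tulp1 from -0.12 to 0.32 and Igfbp7 from -3.17 to 0.74. The other rod genes kept their direction, with ranges of 0.23 to 1.22 for Sag, 0.51 to 1.79 for Gnat1, 0.42 to 1.87 for Rp1, 0.27 to 1.42 for Prph2, 0.21 to 1.39 for Pdc, 0.14 to 1.37 for Nr2e3 and 0.12 to 0.87 for Neurod1. Each was lowest without eNOS+/+ replicate 2 and highest without eNOS+/+ replicate 1, where 0 of them were called. In that fit 6 of these 7 were higher at an unadjusted p under 0.05 by edgeR, beside 49 of all 422 genes (11.6%). The 7 were set apart by their direction in fits that include this one, so that count is no support. Of the rod genes that changed direction, Nrl had an unadjusted p of 0.267 there by edgeR, Gngt1 0.0975, Tulp1 0.708 and Rpgrip1 0.298. The cause of the shifts between fits was not tested. The depth of eNOS+/+ replicate 2 and eNOS-/- replicate 3, with 7 and 26 rods, limits each comparison.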
